A study of Mus musculus with 2 samples.

Results

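The kinesin motor genes were described in mouse embryonic stem (ES) cells with and without a hairpin against the histone variant H2A.B. A gene was taken as a member when a probe set of the array named that gene alone and the platform's symbol began with Kif followed by a digit or the letter c. This gave 39 genes on 83 probe sets, out of 17098 genes on 28898 probe sets that named 1 gene. They were divided by known role into 13 mitotic kinesins, 15 transport kinesins and 11 kinesins of other or less settled roles. The kinesin-associated genes Kifap3 and Kifbp are not motors and were not members.

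The study compared ES cells grown without feeders on gelatin, in serum with leukaemia inhibitory factor. Both groups carried a pMSCV-neo retrovirus in which a U6 promoter drives a short RNA, and both were kept under G418, which kills cells that lack the virus. In the control group this RNA was a control sequence, and in the knockdown group it was a hairpin against H2A.B, a short histone H2A variant. Selection lasted 2 to 4 weeks for the H2A.B-depleted cells, and the labels do not say whether the cells were a pool or a clone. Each group had 1 array, hybridised with RNA of the whole culture, so fewer cells of a kind and less RNA per cell cannot be told apart. The values below describe these 2 arrays, with no replicate error and no test.

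Levels are log2 intensities from RMA, and a difference is knockdown minus control on that scale, so that 1 is 2-fold. The genes H2ab1, H2ab2 and H2ab3, which encode H2A.B, had 0 probe sets, and the depletion itself was not checked here. The label of the cells was checked on 8 ES cell markers, of which 7 had a usable value. Their levels ran from 10.14 to 12.65 in control and from 10.12 to 12.64 in knockdown cells. Pairs of levels below give the control array first. Neuron, fibroblast, multiciliated cell and spermatid markers had 3 of 8, 3 of 7, 1 of 5 and 2 of 3 usable members past the expression filter, respectively. That filter was the median of the gene means over both arrays, 6.73, and 8282 of 16563 genes passed it. Some control values in the deposited table repeat a neighbouring row, and the rows that hold such repeats are called the middle section, with the first section above and the last section below them. After repeated and impossible values had been left out, 77 of the 83 kinesin probe sets were usable, 30 in the first, 17 in the middle and 30 in the last section.

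Kinesins are motor proteins that use ATP to walk along or take apart microtubules. In dividing cells some of them build the spindle, move and align chromosomes and cut the cell apart, and their transcripts are generally made around mitosis. Others carry vesicles, mitochondria and ciliary components to the plus end of microtubules, and several of those are best known from neurons. ES cells divide fast, and the mitotic set is in steady use in them.

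Of the 39 genes, 37 had a usable value and 24 passed the expression filter. Each gene is given by its brightest usable probe set unless another is named. None of the 24 was 2-fold higher or 2-fold lower on the knockdown array. Over all genes past the filter 0.676% were at least 2-fold higher and 1.28% at least 2-fold lower, so a count of 0 among 24 is near the background. At a limit of 0.5 on the log2 scale 1 kinesin was higher, against 2.19% of all genes, and 1 was lower, against 5.17%. The other 22 lay within 0.5. The median difference was 0.03 over the 24 kinesins and -0.0016 over all genes past the filter, of which 4086 lay above 0 and 4191 below. The median size of the difference, its sign left aside, was 0.22 for the kinesins and 0.07 for all genes, but 8 of the 24 kinesins and 4920 of the 8282 genes were read from the first section, where differences were narrow.

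**Figure D1:**
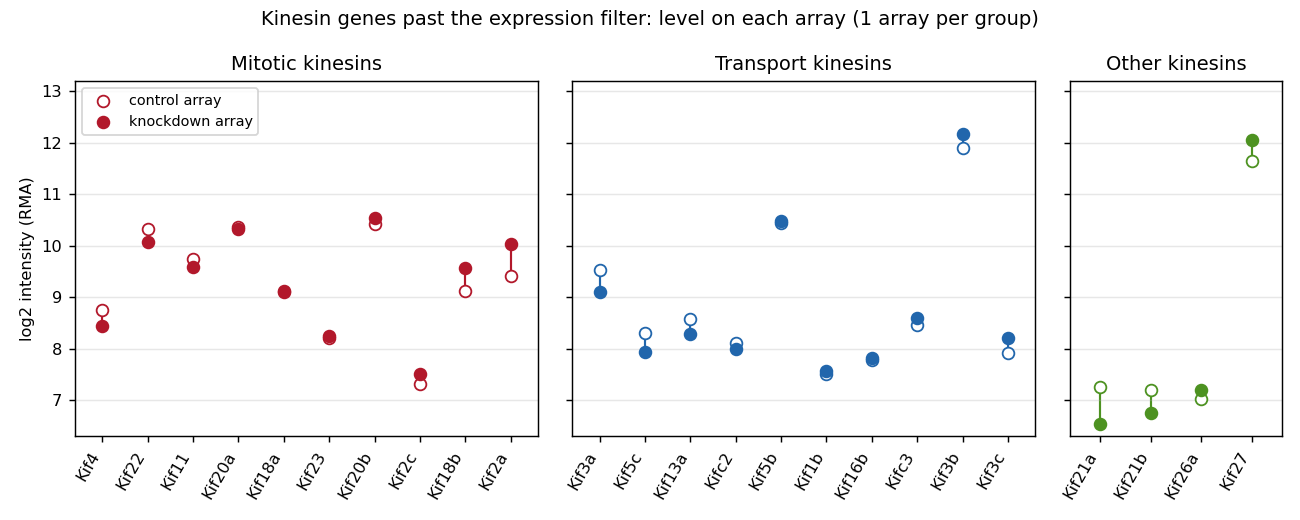
Log2 intensity (vertical axis) of the 24 kinesin genes past the expression filter, on the control array (open circles) and the knockdown array (filled circles), 1 array each. The longest lines are those of Kif21a, which was lower by 0.73 on the knockdown array, and Kif2a, which was higher by 0.62; Kif18a, Kif20a, Kif23 and Kif5b are nearly the same on both.

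Of the mitotic kinesins, 10 of 13 passed the filter, 6 of them above 0 and 4 below, with a median difference of 0.03. The gene with the largest difference was Kif2a, which encodes a microtubule depolymerase of the spindle poles that neurons also use to trim axon branches. Its brightest probe set had 9.41 in control and 10.03 in knockdown cells, 1.54-fold higher. The other probe sets past the filter read 8.16 and 8.78, and 8.56 and 9.14. Kif2a was therefore higher on each of them, by 0.62 and 0.58.

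The next Kif2a probe set, below the filter, had 3.98 and 4.58, a difference of 0.61. These 4 probe sets lay in the last section of the deposited table, and their differences had an SD of 0.02. The last one, in the first section of the table, was dim on both arrays, at 2.95 and 2.76, and differed by -0.19. Of 711 genes with 3 or more probe sets past the filter, 3 were higher by 0.5 or more on all of them (0.422%), and Kif2a was 1 of those 3. Counting only probe sets of the last section, Kif2a was the only such gene of 24 (4.17%). That rule was chosen after the values of Kif2a had been seen.

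Kif18b, which shortens the microtubules that reach from the spindle to the cell edge, came next with 9.11 in control and 9.57 in knockdown cells. It was 1.37-fold higher on its only probe set. Kif2c, the centromere depolymerase also called MCAK, had 7.32 and 7.52, a difference of 0.19. These were the only other mitotic kinesins above 0.15.

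Kif18a, Kif20a, Kif20b and Kif23 each differed by less than 0.15 on the brightest probe set. Kif18a, which dampens chromosome movements at the spindle equator, had 9.10 and 9.12 (0.02), and 0.04 on its dimmer probe set. Kif20a, which brings the chromosomal passenger complex to the central spindle, had 10.37 and 10.33 (-0.04). Kif20b, another motor of late cytokinesis, had 10.42 and 10.54 (0.12), with -0.01 on its dimmer probe set. Kif23, the motor of centralspindlin, had 8.22 and 8.26 (0.04), with -0.19 on a probe set near 4 on both arrays. The differences of Kif23 and Kif20b therefore turned with the probe set, while those of Kif18a did not.

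Kif4, Kif22 and Kif11 were lower on the knockdown array, by amounts that 31.0%, 41.3% and 60.3% of genes past the filter in the last section of the table exceeded. Kif4, a chromokinesin that also works with Prc1 in the spindle midzone, had 8.75 in control and 8.43 in knockdown cells, a difference of -0.31 on its only probe set. Kif22, the chromokinesin Kid that pushes chromosome arms outward, had 10.32 and 10.07, a difference of -0.25. Its second probe set, in the first section, had 8.05 and 7.72, a difference of -0.33, so Kif22 was lower on both. Kif11, also called Eg5, which pushes the spindle poles apart, had 9.75 and 9.59 (-0.16), and 9.37 and 9.27 on its other probe set past the filter (-0.10). Both Kif11 values lay below 0.

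Below the filter, Kif14, a cytokinesis motor that binds citron kinase, had 6.20 in control and 5.42 in knockdown cells. Its difference of -0.77 was the largest of any mitotic kinesin in either direction, and it rests on 1 probe set. Of genes below the filter 14.9% differed by 0.5 or more in either direction. Kif15, a spindle motor that can stand in for Kif11, differed by -0.02, and the depolymerase gene Kif2b, at 2.91 and 2.90, also by -0.02.

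The transcripts that act beside these motors were read from a list of 34 spindle and cytokinesis genes, chosen with earlier results of these data known. Of these, 32 had a usable value and 31 passed the filter, 17 above 0 and 14 below, with a median difference of 0.0037 and none at 2-fold. Incenp, of the chromosomal passenger complex, differed by -0.53 on its brightest probe set, but by 0.15 and 0.07 on the other ones. Cit, the gene of citron kinase, lay below the filter at 3.60 in control and 3.18 in knockdown cells (-0.42). Its other probe set, also dim, differed by -1.21. Cdc20, an activator of the anaphase-promoting complex, differed by 0.28 and Kntc1, of the kinetochore, by -0.28. Cenpe, a mitotic kinesin whose symbol lies outside the naming rule, had 9.71 and 9.92 (0.21), with -0.22 on its dimmer probe set. Racgap1, the partner of Kif23 in centralspindlin, differed by -0.14, Prc1 by 0.02 and the mitotic kinase gene Aurkb by 0.04. The share of dividing cells was not measured, and its part in the kinesin values was not tested.

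**Figure D2:**
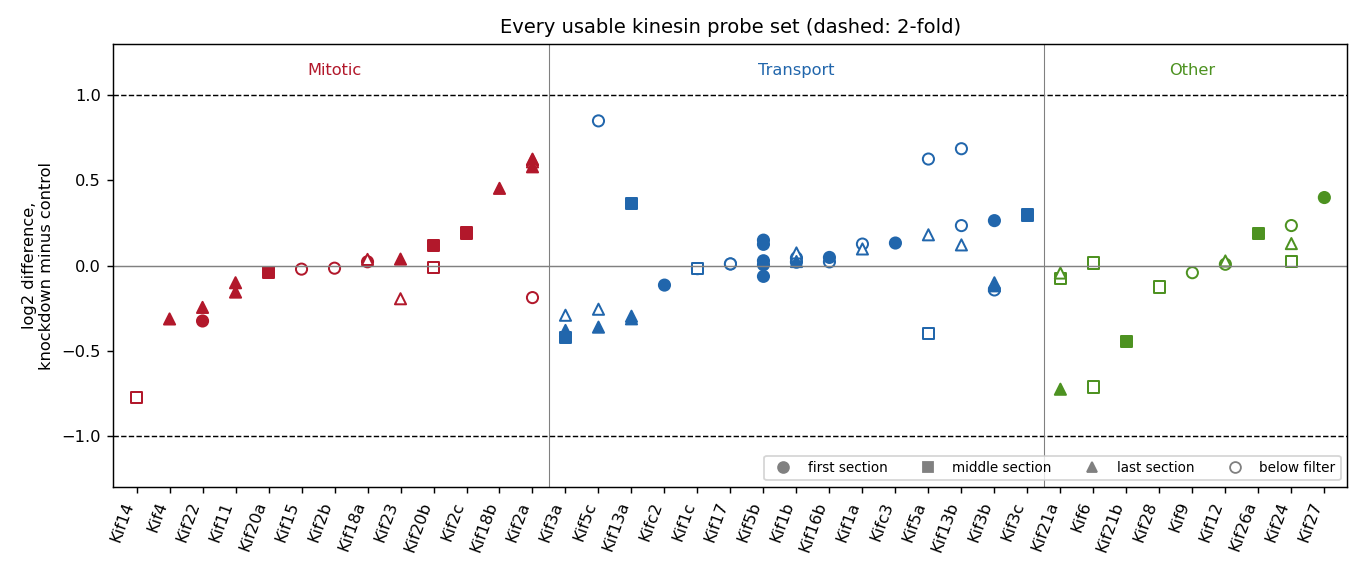
Log2 difference, knockdown minus control (vertical axis), of each of the 77 usable kinesin probe sets, by gene and role; circles, squares and triangles are the first, middle and last section of the table, open symbols are probe sets below the expression filter, and dashed lines mark 2-fold. No probe set reaches 2-fold; the Kif2a triangles lie together at 0.58 to 0.62, all Kif3a symbols lie below 0, and the symbols of Kif5c and of Kif5a lie on both sides.

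Promoter letters were set side by side for the mitotic and transport kinesins. Many genes expressed around mitosis carry a cell-cycle genes homology region, CHR, with the letters TTTGAA or TTCGAA close to the start of transcription, to which the DREAM and MuvB complexes bind, often with upstream CCAAT boxes bound by NF-Y. RefSeq windows of 300 bases (GRCm38.p6), from 250 before the start to 50 after it, were searched for these letters on either strand. Windows were found for 31 of the 39 genes. Kif5a, Kif5b, Kif13b, Kif20a, Kif21b, Kif28, Kifc2 and Kifc3 had none. A CHR match was present in 9 of 12 mitotic kinesins, in 1 of 10 transport kinesins and in 3 of 9 others, against 21.7% of all 27025 genes with a window and 16.5% of those past the expression filter. CCAAT was found in 7 of 12 mitotic and 3 of 10 transport kinesins, against 41.1% of all genes. The windows with the CHR matches of Kif14, Kif2c, Kif1a and Kif27 lie inside the annotated gene and not at its outer end. On the plus strand, the Kif14 window begins at base 136467598 and the gene at 136466301. On the minus strand, the Kif2c window ends at 117179022 and the gene at 117182624. The Kif1a window ends at 93082730 and the gene at 93102039, and the other Kif1a window holds no CHR match. These shares were not tested, and a match is a match of letters and not a bound site.

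These windows are shown for mitotic kinesins with and without a CHR match and for the transport kinesin with the largest difference; large and small differences occur with and without a match. Capitals mark the CHR and CCAAT letters on either strand, and each window is written 5′ to 3′ on the strand of the gene. Kif18b (chr11:102925075-102925374, minus strand) holds a CHR just after the start and 2 CCAAT matches before it. Kif11 (chr19:37376132-37376431, plus strand) and Kif22 (chr7:127042371-127042670, minus strand) hold CHR matches with a CCAAT match upstream. Kif2a (chr13:107022065-107022364, minus strand) holds neither and so has no capitals, and its second, overlapping window holds none either. Kif3a (chr11:53567119-53567418, plus strand), of the transport kinesins, holds a CCAAT match and no CHR. This Kif3a window lies inside the annotated gene, which begins at base 53565701.
Kif18b: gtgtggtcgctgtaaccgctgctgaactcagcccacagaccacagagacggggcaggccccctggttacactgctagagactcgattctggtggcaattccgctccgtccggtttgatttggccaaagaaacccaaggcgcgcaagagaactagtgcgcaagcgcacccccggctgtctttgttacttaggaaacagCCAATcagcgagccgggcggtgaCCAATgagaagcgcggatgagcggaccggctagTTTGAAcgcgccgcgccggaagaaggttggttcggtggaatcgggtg
Kif11: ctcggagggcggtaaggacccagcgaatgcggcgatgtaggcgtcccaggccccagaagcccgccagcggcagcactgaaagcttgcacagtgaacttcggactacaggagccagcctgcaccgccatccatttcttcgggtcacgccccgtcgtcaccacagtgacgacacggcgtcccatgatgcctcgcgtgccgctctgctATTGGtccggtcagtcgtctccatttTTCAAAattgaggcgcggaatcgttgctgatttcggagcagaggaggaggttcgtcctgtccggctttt
Kif22: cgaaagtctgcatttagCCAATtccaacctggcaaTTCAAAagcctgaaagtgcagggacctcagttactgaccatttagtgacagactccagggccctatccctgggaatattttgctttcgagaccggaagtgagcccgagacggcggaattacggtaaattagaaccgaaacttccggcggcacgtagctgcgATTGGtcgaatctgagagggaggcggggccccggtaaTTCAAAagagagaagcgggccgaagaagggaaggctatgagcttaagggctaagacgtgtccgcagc
Kif2a: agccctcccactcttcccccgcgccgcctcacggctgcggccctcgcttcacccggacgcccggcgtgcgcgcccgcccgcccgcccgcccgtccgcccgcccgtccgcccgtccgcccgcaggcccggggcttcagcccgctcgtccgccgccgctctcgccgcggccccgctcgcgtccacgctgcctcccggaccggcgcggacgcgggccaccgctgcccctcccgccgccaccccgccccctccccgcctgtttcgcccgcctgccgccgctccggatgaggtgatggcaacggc
Kif3a: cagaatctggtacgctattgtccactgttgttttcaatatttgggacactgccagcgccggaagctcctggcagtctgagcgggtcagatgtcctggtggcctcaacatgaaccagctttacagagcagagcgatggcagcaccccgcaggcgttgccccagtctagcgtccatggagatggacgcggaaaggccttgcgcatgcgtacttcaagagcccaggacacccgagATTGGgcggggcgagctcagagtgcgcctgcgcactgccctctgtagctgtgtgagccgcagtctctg

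The position of the matches was also recorded. A CHR match that lay whole within 30 bases of the start, a limit chosen after the matches had been seen, was found in 7 of 12 mitotic kinesins, 0 of 10 transport kinesins and 2 of 9 others (Kif24 and Kif26b), against 3.7% of all genes. The mitotic ones were Kif4, Kif11, Kif15, Kif18b, Kif20b, Kif22 and Kif23. These 7 genes had no shared direction on the arrays: Kif18b differed by 0.45 and Kif4 by -0.31. The list of spindle and cytokinesis partners had a CHR match in 21 of 30 genes (70%), and the intraflagellar transport list in 0 of 15.

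**Figure D3:**
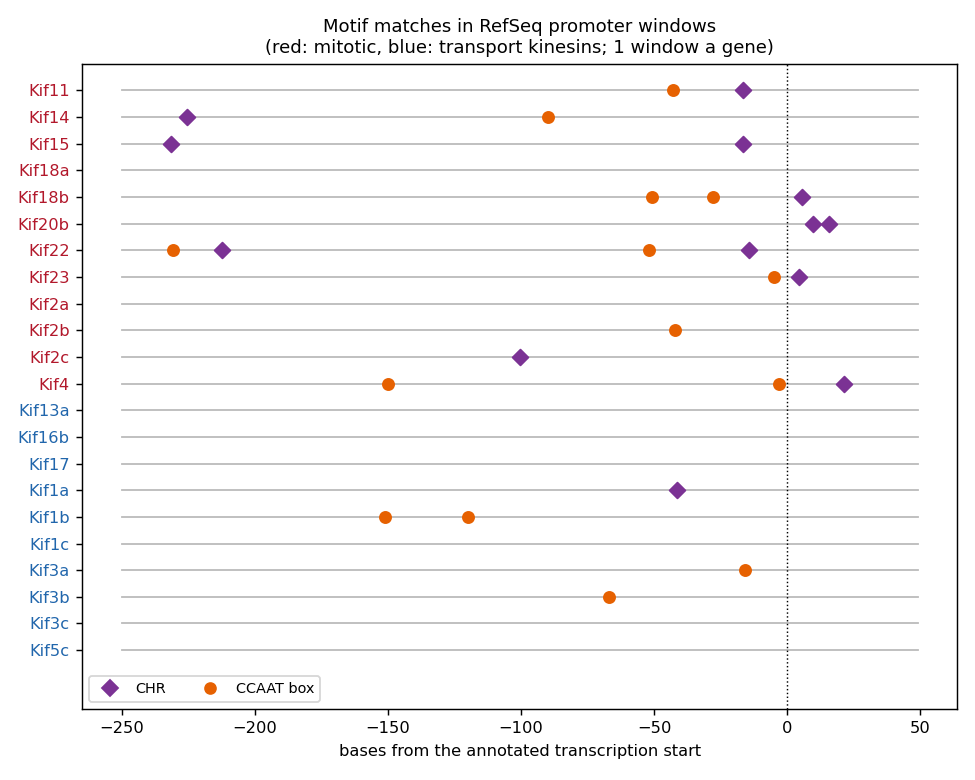
Matches of CHR (TTTGAA or TTCGAA, diamonds) and CCAAT (circles) on either strand in 300-base RefSeq promoter windows, by distance in bases from the annotated start; names of mitotic kinesins are red and of transport kinesins blue. Diamonds crowd near 0 in the mitotic kinesins, and the only diamond among the transport kinesins is that of Kif1a. The diamonds of Kif1a, Kif14 and Kif2c come from windows inside the annotated gene.

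Of the transport kinesins, 10 of 15 passed the filter, 6 above 0 and 4 below, with a median difference of 0.04. None of the 10 reached 0.5 in either direction. The largest difference was that of Kif3a, a motor subunit of the heterotrimeric kinesin-2 that carries trains of intraflagellar transport into the cilium. It had 9.53 in control and 9.11 in knockdown cells, 1.34-fold lower. A value of this probe set recurs as a control value within 20 rows below it. With both members of such repeated pairs left out, Kif3a differed by -0.38. Its other probe set past the filter had 7.57 and 7.19 (-0.38) and a dimmer one 6.15 and 5.86 (-0.29). All usable Kif3a values were thus lower on the knockdown array, in the middle and in the last section of the table. Of 2698 genes with 3 or more usable probe sets, 107 were lower by 0.25 or more on all of them (3.97%), a rule chosen after these values had been seen. That share pools all sections, also the first, where only 1.67% of genes past the filter differed by 0.5 or more. In the middle and last sections 16.6% and 14.7% did, and the share there was not counted. Another Kif3a probe set had a value of the step series and was left out.

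The genes of the partners of Kif3a gave both directions, depending on the probe set. Kif3b, the other motor subunit of kinesin-2, had 11.90 in control and 12.17 in knockdown cells, a difference of 0.26. Its second probe set past the filter differed by -0.12 and the dimmer ones by -0.10 and -0.14, so 1 of its 4 values lay above 0. Kif3c, which pairs with Kif3a mainly in neurons, had 7.91 and 8.21 (0.30) on the probe set that names it alone. The probe sets that name Kif3c together with a Riken transcript differed by -0.06 and -0.04. The accessory subunit gene Kifap3 had 9.27 and 9.51, a difference of 0.25 on its only probe set.

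Cilia components that ride on kinesin-2 were read from a list of 19 intraflagellar transport genes, all with a usable value. Of the 15 past the filter, 3 lay above 0 and 12 below, with a median of -0.04, and none reached 2-fold. Over all genes past the filter 4086 lay above 0 and 4191 below. Several of the 12 were close to 0, such as Ift81 and Ift57 at -0.01, and the highest of the 3 was 0.05. Ift52 of the core complex was lowest at -0.48 on its only probe set, followed by Wdr35 at -0.18. Below the filter, Wdr19 had 5.72 in control and 3.63 in knockdown cells, a difference of -2.10, and its other probe set differed by -2.05. Ttc21b differed by -3.24 on one probe set, from 7.83 to 4.59, and by 0.02 on another. Ift88 differed by -0.94. Wdr19 was therefore low on the knockdown array on both probe sets, and Ttc21b on only 1 of them. Among genes below the filter 4.54% were at least 2-fold lower, and 2.01% of 6826 genes with 2 or more usable probe sets were so on all of them. Those shares pool all sections of the table. The Wdr19 and Ttc21b probe sets lay in the last section, and the shares there were not counted.

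The kinesin-1 heavy chains carry mitochondria and vesicles. Kif5b, the form found in most tissues, had 10.45 and 10.47, a difference of 0.03, and its 4 other probe sets, all past the filter, lay between -0.06 and 0.15. Kif5c, best known from neurons, had 8.30 in control and 7.94 in knockdown cells (-0.36). Its dimmer probe sets differed by -0.26 and by 0.85, the latter from 4.97 to 5.82. Kif5a, the other neuronal form, lay below the filter with 0.18, and its dimmer probe sets had 0.62 and -0.40. The directions of Kif5c and Kif5a thus changed between probe sets of the same gene.

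The light chains and cargo adaptors of these motors had 10 of 13 usable members past the filter, 8 above 0 and 2 below, with a median of 0.03. Of these 10, 80% were read from the first section, where differences were narrow. Over all genes past the filter in that section 2569 lay above 0 and 2349 below. Madd, an adaptor of the Kif1 motors, differed by -0.48 on its brightest probe set and by 0.37 on its dimmer one. Below the filter was Trak2, which links kinesin-1 to mitochondria. It had 6.19 in control and 4.58 in knockdown cells, a difference of -1.61, and 5.39 and 3.81 on its second probe set (-1.58). Trak2 was thus at least 2-fold lower on both, as were 2.01% of the 6826 genes with 2 or more usable probe sets on all of theirs.

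Kif1b, which carries synaptic vesicle precursors and mitochondria, had 7.52 and 7.56 (0.05), and its 5 probe sets, in the first and last sections, lay between 0.02 and 0.07. Kif16b, which moves early endosomes, had 7.78 and 7.83 (0.05). The minus-end motors of the group were Kifc3 with 8.46 and 8.59 (0.13), known from epithelial junctions, and Kifc2 with 8.11 and 7.99 (-0.11). Kif13a, which carries endosomal cargo to the cell surface, had 8.59 and 8.29 (-0.30). It differed by -0.31 on a second probe set of the last section and by 0.36 on the one in the middle section.

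Of the 5 transport kinesins below the filter, Kif1a (0.13), Kif1c (-0.02), Kif17 (0.01), Kif5a and Kif13b (0.23), none reached 0.5 on the brightest usable probe set. A dim Kif13b probe set had 3.88 and 4.57 (0.69), and its brightest probe set had a repeated control value and was left out, as was a Kif17 probe set of the step series.

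Neuron markers were looked at beside the neuronal kinesins. The 3 markers past the filter, Stmn2 (-0.01), Tubb3 (0.03) and Nefl (0.04), had a median difference of 0.03. The summed log2 level of the 8 usable markers was 55.1 in control and 52.7 in knockdown cells, and they ranged from 2.93 to 10.93 on the control array. That sum is not an amount of RNA, and its largest falls were those of Syt1 and Rbfox3, both below the filter. Syt1, below the filter, differed by -1.46 and by -1.55 and -1.28 on its other probe sets, and Rbfox3 by -0.84 on its brightest but by 0.12 and -0.02 on its other ones. Map2 (-0.09), Syp (-0.08) and Snap25 (-0.06) were also below the filter. Their part in the values of Kif5c, Kif21a and Kif21b was not tested.

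Among the kinesins of other roles, 9 of 11 had a usable value and 4 passed the filter, with a median of -0.13. Kif21a and Kif21b, neuronal motors that restrain microtubule growth, were lower on the knockdown array. Kif21a had 7.26 in control and 6.54 in knockdown cells, 1.65-fold lower, but its dimmer probe sets differed by only -0.04 and -0.07. Kif21b had 7.20 and 6.75, a difference of -0.44 on its only usable probe set. In the last section 6.72% of genes past the filter differed by more than Kif21a, and in the middle section 19.1% by more than Kif21b. Kif26a, which lacks the ATPase activity of a motor, had 7.02 and 7.21 (0.19). Kif27, a relative of Kif7 with a role in motile cilia, had 11.65 and 12.05 on its only usable probe set. That was a difference of 0.40 in the section with the narrowest spread, where 2.44% of genes past the filter differed by more. The other Kif27 probe set was dim, at 4.57 on the knockdown array, and was left out for a repeated control value.

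The remaining ones were dim. Kif6, a motor linked to motile cilia, had 5.14 and 4.43 (-0.71), with 0.01 on its other probe set, Kif24, a centriole protein that holds back cilium formation, differed by 0.23, and Kif9, Kif12 and Kif28 by -0.04, 0.01 and -0.13. Kif7, the Hedgehog regulator at the tip of the primary cilium, and Kif26b had no usable value, because the control values of their single probe sets repeated a value a few rows above. The Hedgehog pathway in which Kif7 acts had 8 of 10 usable genes past the filter, 2 above 0 and 6 below, with a median of -0.24 and none at 2-fold. Gli3 (-0.34), Hhip (-0.33) and Gli1 (-0.32) were the lowest on their brightest probe sets. Hhip was above 0 on some of its dimmer ones, at 0.31 and 0.37. Only 37.5% of the 8 were read from the first section, and the part of the section in these values was not tested.

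**Figure D4:**
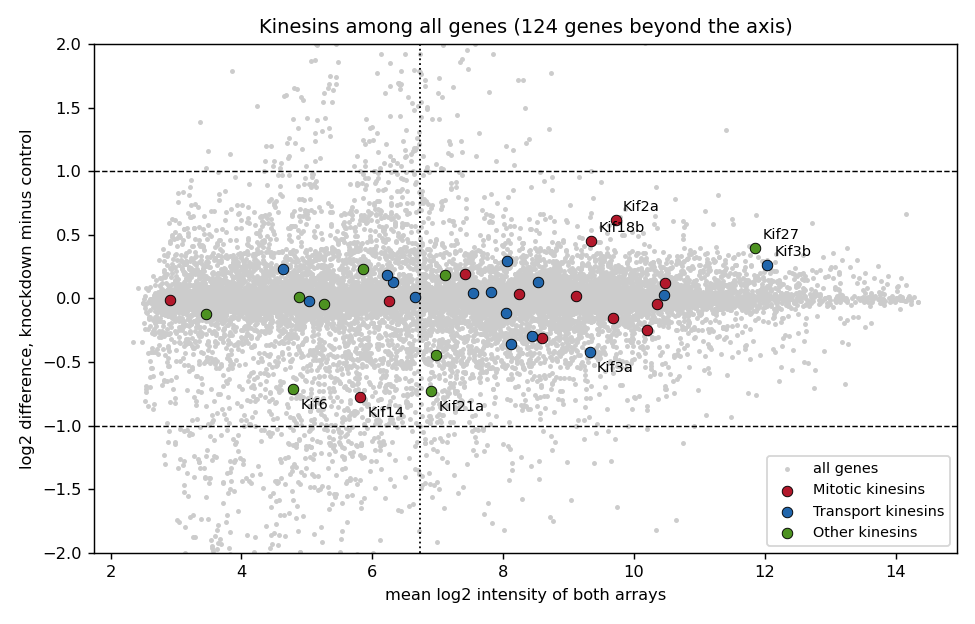
Log2 difference, knockdown minus control, against the mean log2 intensity of both arrays for all 16563 genes (grey) and the 37 kinesins with a usable value; the dotted line is the expression filter at 6.73, dashed lines mark 2-fold, and 124 genes lie beyond the axis. Kif2a and Kif18b lie above the bulk of genes of like intensity, Kif3a below it, and no kinesin crosses the 2-fold lines.

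On their brightest probe sets, the genes of the track and of the opposite motor were near equal on the arrays. The 11 tubulin genes past the filter had a median of 0.03 and lay between -0.15 and 0.07. The 17 genes of cytoplasmic dynein and dynactin, the motor that walks to the minus end, had a median of -0.01 and lay between -0.25 for Nde1 and 0.19 for Dctn1. Most were read from the first section, where differences were narrow (90.9% of the tubulins and 82.4% of the dynein and dynactin genes). Some dimmer probe sets differed more, in both directions. Dynlt3, at -0.11 on its brightest, had 0.35 and 0.38, and Tuba1c, at -0.15, had 0.20. A dim Dynll1 probe set had 1.67 and a dim Bicd2 one -0.43.

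Where a probe set stood in the table bore on how far its values differed. Over genes past the filter, 1.67% differed by 0.5 or more in either direction in the first section of the table, 16.6% in the middle and 14.7% in the last. The 8 kinesins read from the first section had a median size of difference of 0.08, against 0.04 for all genes there. The 7 of the middle section had 0.19, as did all its genes, and the 9 of the last section had 0.31, against 0.19. Mitotic kinesins were read mostly from the last section (6 of 10) and transport kinesins mostly from the first (6 of 10), so the values of the 2 groups are not of like spread. In the last section 9.36% of genes past the filter had a larger difference than Kif2a and 17.6% a larger one than Kif18b. In the middle section 20.5% had a larger one than Kif3a.

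**Figure D5:**
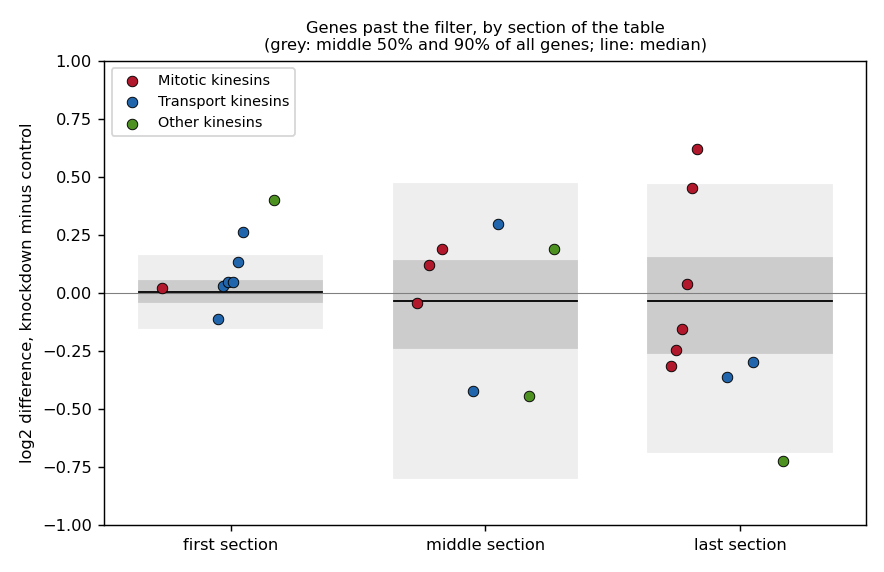
Log2 difference, knockdown minus control, of the 24 kinesins past the filter (points, by role) in each section of the table; dark and light grey boxes hold the middle 50% and 90% of all genes past the filter and the line is their median. Points spread more in the middle and last sections, as the boxes do, and Kif2a, Kif21a, Kif27 and Kif3b lie outside the light box of their section.

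Agreement between probe sets was mixed. Of 22 kinesins with 2 or more usable probe sets, 13 had all of them on the same side of 0 and 9 did not. Among the 8 with 2 or more past the filter, Kif2a, Kif3a, Kif22, Kif11 and Kif1b had a single direction, and Kif3b, Kif5b and Kif13a did not. Of the 10 usable kinesin probe sets that differed by 0.5 or more, 6 lay below the filter. The matching shares over all genes and probe sets were not counted. These counts therefore do not show whether kinesins differ from other genes in this.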

How the data were processed

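The submitters' processing notes name RMA and give no version. RMA corrects background, equalises the quantiles of the arrays and summarises each probe set, and the log2 intensities deposited by the authors are its output; the table states no scale, and log2 was taken from the range of the control column. The knockdown column as deposited was treated as a score, because 616 of its values form a series rising by 1 between rows 2054 and 4710 and 2 others exceed 20. These were left out, and the rest used as log2 intensities. A further 1455 control values, all between rows 18185 and 33642, were left out because they repeat a value up to 20 rows above. Those rows are the middle section of the table. The rows whose values were repeated were kept. Among them are the only Kif2c probe set, the brightest Kif3a one and the Kif13a one of the middle section. Of the 83 kinesin probe sets, 2 were lost to the series and 4 to the repeats.

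Gene names came from the platform annotation. Where a gene had several usable probe sets, the brightest on average was used. No centring was added. Calls are differences of at least 2-fold, with no test, since each group had 1 array; precision is limited by the number of arrays. Python 3.11.15, pandas 2.3.3 and statsmodels 0.14.6 were used, and the procedure was tested on simulated data. Members, roles and gene lists were chosen with earlier results of these data known. Named by rule were all mitotic and transport kinesins past the filter and every kinesin with a probe set at 0.5 or more. Members of related lists with large differences were also named, but not all of the largest. Pafah1b1 (0.28), Ppfia2 (-0.39) and Tubg2 (-0.19), all below the filter, were not described above. The remaining kinesins were named as well. Kifap3, Cenpe, Kntc1, Racgap1, Prc1, Aurkb, Ift52, Ift57, Ift81, Wdr35 and the neuron markers were named outside that rule, after their values were seen. The same holds for Dynlt3, Dynll1, Bicd2 and Tuba1c. Promoter windows came from RefSeq. Alternatives were the median over probe sets, probe sets without a suffix, other filters, centring, the handling of repeats, single sections, a 1.5-fold rule and another placing of Kif2a.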

Additional observations from a re-analysis of the deposited data

How the results depend on the processing

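No kinesin past the filter reached 2-fold in either direction under any of the 11 alternatives that keep the 2-fold rule, and at 1.5-fold 1 was higher, Kif2a, and 1 lower, Kif21a. The median of the mitotic kinesins, 0.03, was -0.15 in the first section alone (2 genes), 0.12 in the middle (3) and -0.059 in the last (6). That of the transport kinesins, 0.04, was -0.041 with the median over probe sets, 0.30 in the middle section alone (3) and -0.30 in the last (5). That of the other kinesins, -0.13, was 0.057 with the median over probe sets, -0.042 without an expression filter, 0.40 when only genes above the 75th percentile were kept and in the first section alone (1 gene each) and -0.73 in the last (1). Fewer genes enter each of the section settings; otherwise the cause was not tested. With the median over probe sets 5 of 24 single genes moved by more than 0.05, the median SD among probe sets of a gene, and Kif23 (-0.08) and Kif3b (-0.11) turned sign; centring turned none of the 24. No replicate could be left out. No paired analysis was possible because each group had 1 array.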
